A study of Homo sapiens with 6 samples.

Results

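The transforming growth factor beta (TGF-beta) and bone morphogenetic protein (BMP) pathway was followed through 43 genes, of 60609 genes counted in each library. The genes were matched by symbol, all 43 to a single Ensembl gene, and comprise 13 ligands, 4 extracellular proteins that hold or block ligands, 11 receptors and co-receptors, 8 SMADs, 2 SMAD co-repressors and 5 targets. RNA was measured in K562, a human chronic myelogenous leukemia line of erythroid character. Endogenous EP400 in these cells carries the FKBP12 F36V degradation tag (dTAG) homozygously. EP400 is the scaffold and remodeling ATPase of the NuA4/TIP60 complex. All 6 libraries came from cells treated with 500 nM dTAGV-1, which removes the tagged protein, for 24 h. The control cells (WT, n = 3) expressed full-length EP400 from the AAVS1 safe harbor locus, and the mutant cells (Delta-TRRAP, n = 3) expressed EP400 lacking the segment that tethers TRRAP, a large adaptor subunit, from the same locus. Both lines descend from 1 tagged clone and each is itself 1 clone, so the mutation and the clone cannot be told apart, and p-values measure the spread between cultures of a clone.

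Ligands of this family signal as dimers through complexes of type I and type II serine/threonine kinase receptors. Receptors of the TGF-beta and activin branch phosphorylate SMAD2 and SMAD3, and those of the BMP branch phosphorylate SMAD1, SMAD5 and SMAD9. The phosphorylated SMADs enter the nucleus with SMAD4, where they regulate genes such as ID1 to ID4, whose products bind and block basic helix-loop-helix factors. SMAD6, SMAD7, SKI and SKIL restrain the pathway, and SMAD6, SMAD7 and SKIL are induced by it in many cells. In the erythroid lineage, BMP4 and activin-class ligands are known as regulators of progenitor expansion and maturation.

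The ID genes are the classical transcriptional readout of the BMP branch, so the DNA next to their RefSeq start sites (promoter table on GRCh38.p14, upstream sequence from hg38) is shown first. Of the 43 genes, 38 had an entry in the promoter table. The search was for GGCGCC, a core bound by BMP-class SMADs that reads the same on both strands, and for GTCTG or its complement CAGAC, the box bound by SMAD3 and SMAD4; the letters of these motifs do not overlap each other. Within 2000 bases upstream, GGCGCC began at position -965 from the start of ID1, -408 from ID2 and -508 from ID4, and was not found for ID3. The 120 bases around it are given 5′ to 3′ with both motifs in capitals, on the plus strand of chr20:31604267-31604386 for ID1 (its last bases lie in an exon of an unnamed antisense gene), chr2:8681591-8681710 for ID2 (an intron of the longer GENCODE model of ID2 and of the antisense gene ID2-AS1) and chr6:19836805-19836924 for ID4 (an intron of the antisense RNA LNC-LBCS). The scan of the upstream windows was chosen after expression values had been seen.
ID1: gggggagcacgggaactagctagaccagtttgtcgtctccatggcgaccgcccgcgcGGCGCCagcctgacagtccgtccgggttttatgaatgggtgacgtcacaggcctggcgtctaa
ID2: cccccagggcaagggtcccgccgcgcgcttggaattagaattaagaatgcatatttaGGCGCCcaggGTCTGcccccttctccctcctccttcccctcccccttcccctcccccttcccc
ID4: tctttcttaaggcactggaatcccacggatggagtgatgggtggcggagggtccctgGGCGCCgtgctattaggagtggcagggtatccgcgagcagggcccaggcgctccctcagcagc
In ID2, 4 bases separate the core from a GTCTG. For ID3, the 250 bases before its start are shown instead (chr1:23559502-23559751, minus strand), because they hold a CAGAC at position -147. The box is not particular to ID3. The same stretch of ID4 holds a CAGAC at position -205, and the 2000 upstream bases of each ID gene hold 3 to 5 boxes.
ID3: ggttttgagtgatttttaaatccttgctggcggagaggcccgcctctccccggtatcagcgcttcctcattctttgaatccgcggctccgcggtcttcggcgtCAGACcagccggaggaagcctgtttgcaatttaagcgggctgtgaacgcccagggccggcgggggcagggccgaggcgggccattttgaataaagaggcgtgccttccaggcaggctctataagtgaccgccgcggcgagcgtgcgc
Of 35116 RefSeq windows, GGCGCC occurs in 38.7% of those of 2000 upstream bases and the 5-letter box in 96.8%; in the windows of 300 bases at the start site, the shares are 19.2% and 45.3%. A match describes letters only, and no binding was measured here.

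Sequencing depth was similar between groups, with gene-assigned reads of 39966818 to 42616061 per WT library and 35076835 to 38491513 per Delta-TRRAP library. EP400 RNA, which includes the tagged gene and the transgene, did not differ beyond its spread (5057 ± 277 against 5574 ± 1238 normalized counts, SD, n = 3, adjusted p = 0.272). Mitochondrial genes took 3.18 to 3.71% of the WT reads and 5.07 to 6.24% of the Delta-TRRAP reads, and their part in the results was not tested. The 11 erythroid and K562 markers were all detected, and their summed level fell between 5870 and 5930 CPM (counts scaled to library size) for the WT libraries and between 3560 and 3680 for the mutant ones. TFRC carried most of that sum (578625 raw counts over the WT libraries and 270071 over the mutant libraries), and of the 11 markers 2 were called higher (HBZ and HBE1) and 2 lower (TFRC and LMO2). The 10 fibroblast and mesenchymal markers summed to 0.937 to 1.49 CPM in the controls and 23.6 to 25 CPM in the mutant, but COL1A2 alone went from 5 to 2622 raw counts, COL1A1 (86 and 89) and DCN (35 and 26) were not called, and LUM and PDGFRA were at 0 in all libraries. PDGFRB (5 and 28) was called higher. COL3A1 (2 and 28) and TWIST1 (2 and 17) had more counts in the mutant and were not tested. THY1 (0 and 1) and FAP (2 and 0) were nearly absent. The 7 megakaryocyte markers summed to 18.6 to 20.2 and 4.63 to 5.57 CPM, a fall carried by ITGA2B (1989 and 267 raw counts), while ITGB3 (262 and 293) was not called and GP1BA, GP9 and PF4 were at 0. PPBP (2 and 13) and VWF (1 and 10) were rare, higher in the mutant and not tested. The 6 monocyte and macrophage markers summed to 207 to 227 and 23.1 to 24.8 CPM, which was almost wholly LYZ (25500 and 2632 raw counts). CD14 (15 and 29), FCGR3A (9 and 30), CSF1R (2 and 12) and CD68 (0 and 2) had more counts in the mutant and were not called or not tested. ITGAM (95 and 67) had fewer counts in the mutant and was not called. The part of other cell states in the pathway's differences was not tested, and in these bulk samples fewer cells of a type and less RNA per cell cannot be told apart.

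A gene was called changed at an adjusted p of 0.01 or less (edgeR's quasi-likelihood test, Benjamini-Hochberg over 19114 genes) with a fold of at least 2 (log2 fold change of at least 1 in size). Of the 43 genes, 35 passed the filter on low counts and 13 of them were called (37.1%), where 22.6% of all tested genes were called. Higher in Delta-TRRAP were 6 genes (17.1% of the 35, against 16.5% of all genes), namely INHBA, GDF15, TGFBR3, SMAD6, SMAD9 and ID3. Lower were 7 (20%, against 6.08% of all genes), namely TGFB2, TGFB3, INHBE, BMP2, LTBP1, TGFBR1 and TGFBI. With scaling by upper quartile or by library size the split was 8 higher and 6 lower. For INHBA, TGFB2, BMP2 and SMAD9, 1 group's mean was under the filter's minimum of 5, so they were tested because of the group in which they were higher. At the adjusted p alone 25 of the 35 passed, against 58.3% of all genes, and in 28 the values of the 2 groups did not overlap, against 71.1%. The median log2 fold change over the 35 was -0.07, beside 0.03 over all tested genes, and the single values ran from -2.40 to 3.72.

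**Figure D1:**
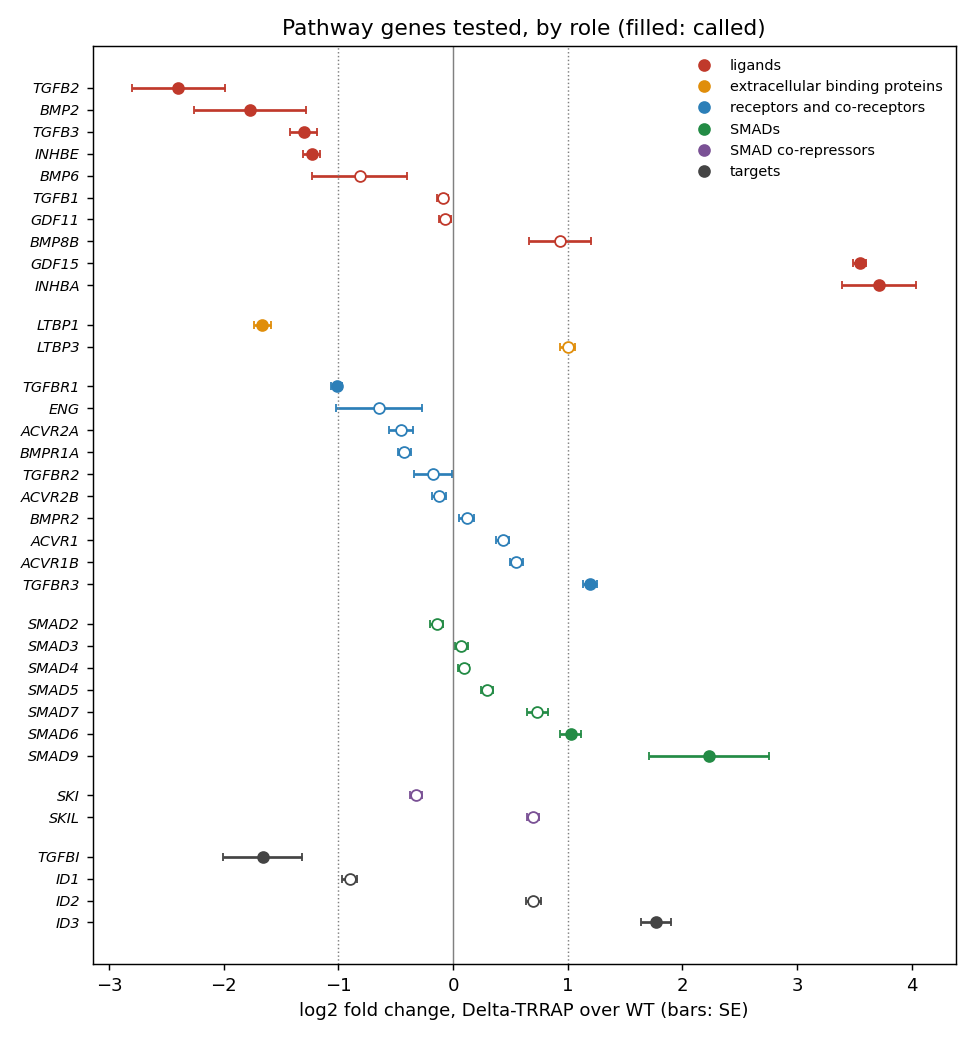
Log2 fold change (Delta-TRRAP over WT) of the 35 tested genes, colored and grouped by role, with bars of 1 SE (n = 3 libraries a group). Filled points are called genes, dotted lines mark a fold of 2, and points past the lines are seen on both sides among ligands, from -2.40 for TGFB2 to 3.72 for INHBA, while most receptors and SMADs lie between the lines.

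Ligand RNAs differed in both directions. The activin subunit gene INHBA and GDF15 were higher in Delta-TRRAP, by 13.1-fold and 11.7-fold, whereas TGFB2, TGFB3, INHBE and BMP2 were lower. As stated above, INHBA, TGFB2 and BMP2 were tested because of the group in which they were higher. Of 13 ligand genes, 10 were tested, 2 rose, 4 fell and 4 were not called. GDF15 (ENSG00000130513.6, chr19:18374731-18389176, GRCh38) encodes a distant, stress-induced member of the family that acts through the receptor GFRAL. Its normalized counts were 1113, 1142 and 1116 in WT and 13732, 12579 and 13076 in Delta-TRRAP. All 3 mutant libraries were thus far above all controls, by 11.7-fold (log2 fold change 3.55 ± 0.06, SE, adjusted p = 5.82e-16).

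INHBA (ENSG00000122641.11, chr7:41667168-41705834) encodes the subunit of activin A, a ligand known to promote hemoglobin synthesis in K562. It was counted at 3.04, 1.92 and 5.09 normalized reads in WT and at 41.2, 47.8 and 46.5 in Delta-TRRAP. The control values rest on 10 raw counts in all, which puts the ratio of counts between 7.17 and 29 (95% interval, counting error only), and the groups were far apart (13.1-fold higher, log2 fold change 3.72 ± 0.33, adjusted p = 7.46e-08). INHBE (ENSG00000139269.3, chr12:57452323-57459280), the gene of another activin subunit and a target of the integrated stress response, moved the opposite way. Its normalized counts were 880.5, 816 and 816 in WT against 388, 354 and 325 in Delta-TRRAP. The mutant libraries were 2.35-fold lower without overlap (log2 fold change -1.23 ± 0.07, adjusted p = 1.02e-09).

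The 3 TGF-beta isoforms did not move as a set. TGFB3 (ENSG00000119699.7, chr14:75958097-75983011) had normalized counts of 188, 175 and 202 in WT and 69.6, 75.1 and 83.6 in Delta-TRRAP. Every mutant value was below every control, with a 2.47-fold decrease (log2 fold change -1.30 ± 0.12, adjusted p = 1.41e-07). TGFB2 was a rare transcript, with raw counts of 16, 25 and 19 in WT and 3, 6 and 2 in Delta-TRRAP (log2 fold change -2.40 ± 0.41, adjusted p = 8.3e-05). TGFB1, the main isoform of hematopoietic cells, had a mean of 4811 ± 111 normalized counts in WT and 4519 ± 54.6 in Delta-TRRAP, and was not called (log2 fold change -0.09 ± 0.05, adjusted p = 0.106). On a scale per length (RPKM, in which reads are divided by exon length and library size), TGFB1 therefore exceeded TGFB3 in both lines, at 37.9 ± 0.877 against 0.924 ± 0.0661 in WT and 35.6 ± 0.430 against 0.374 ± 0.0346 in Delta-TRRAP.

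The order of ligand levels differed between the lines. In WT the RPKM was 37.9 for TGFB1, 13.8 ± 0.201 for GDF15, 7.07 ± 0.314 for INHBE and 4.24 ± 0.0541 for GDF11, with none of these neighbours within their spread of each other. In Delta-TRRAP GDF15 came first at 161.7 ± 7.12, followed by TGFB1 at 35.6, GDF11 at 4.03 ± 0.186 and INHBE at 3.00 ± 0.269. GDF11, a ligand studied as an inhibitor of late erythroid maturation, was not called (1451 ± 18.5 against 1379 ± 63.5 normalized counts, adjusted p = 0.238).

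BMP ligands were rare in both lines. BMP2 had raw counts of 7, 8 and 10 in WT and 3, 2 and 2 in Delta-TRRAP, and its decrease (log2 fold change -1.77 ± 0.49, adjusted p = 0.00481) lost the call when any single Delta-TRRAP library was left out (adjusted p = 0.0101, 0.0197 and 0.015) and with DESeq2 (0.0421). BMP8B passed the adjusted p below the required fold (16.5 ± 4.46 against 31.8 ± 7.24 normalized counts, log2 fold change 0.93 ± 0.27, adjusted p = 0.00704). Its call is uncertain, because it shares sequence with its near-identical copy BMP8A and overlaps OXCT2 on the same strand; without WT replicate 2 or Delta-TRRAP replicate 1 it was called, at log2 fold changes of 1.14 and 1.09, as it was with scaling by upper quartile or library size (1.03 and 1.06) and with its neighbourhood median removed (1.05). BMP6 had a log2 fold change of -0.81 ± 0.41 (adjusted p = 0.0943). BMP4, INHBB and BMP7 were not tested, with raw counts summed over 3 libraries of 3, 2 and 0 in WT and 11, 1 and 9 in Delta-TRRAP.

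**Figure D2:**
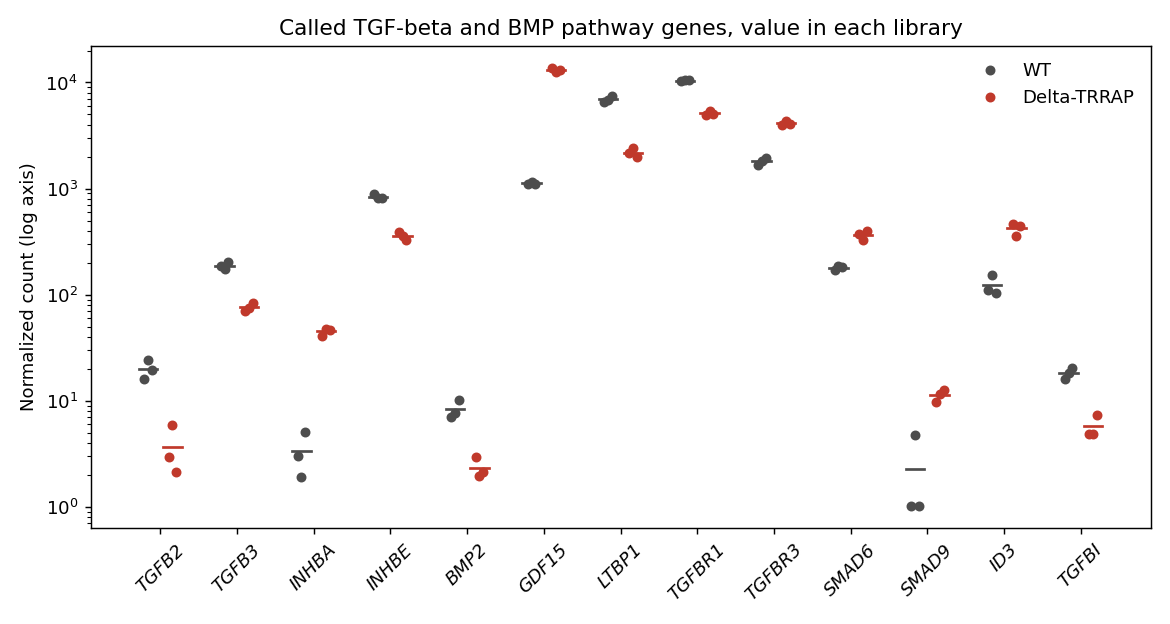
Normalized counts (log axis) of the 13 called genes in each of the 6 libraries, with WT in gray and Delta-TRRAP in red and a horizontal line at each group's mean. For every gene the 3 Delta-TRRAP points lie all above or all below the 3 WT points, with GDF15 at 12579 to 13732 against 1113 to 1142.

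Among the extracellular proteins, the 2 latent TGF-beta binding proteins, which tether the inactive ligand to the matrix, shifted in opposite directions. LTBP1 (ENSG00000049323.16, chr2:32946953-33399509) was counted at 6553, 6850.1 and 7387 normalized reads in WT and 2169, 2424 and 1963 in Delta-TRRAP. The groups were well separated, with LTBP1 3.17-fold lower (log2 fold change -1.66 ± 0.07, adjusted p = 2.25e-11). LTBP3 had 362, 358 and 356 in WT and 694, 724 and 733 in Delta-TRRAP. That difference passed the adjusted p (2.19e-09) with a log2 fold change just under 1 and thus was not called, although it was called without Delta-TRRAP replicate 1 (1.02), with scaling by upper quartile or library size (1.10 and 1.13), with a minimum mean of 50 (1.07) and with its neighbourhood median removed (1.11). Per length, LTBP1 stayed the more abundant of the pair, at 24.2 and 7.64 RPKM in WT and Delta-TRRAP against 0.800 and 1.60 for LTBP3. The antagonists of this list were scarcely present. NOG, which blocks BMPs, had no count in any library, which allows up to 3 counts over the libraries of a group. FST, which blocks activins, had 0 counts over the WT libraries and 5 over the Delta-TRRAP libraries. Other antagonists, from the second list described below, varied in level. TWSG1 stood at 21.5 and 21.9 RPKM in WT and Delta-TRRAP and FSTL3 at 1.335 and 1.029, and neither was called, while GREM1 had 1 and 0 raw counts. Of the 12 tested extracellular proteins of that list, 3 were called higher and 1 lower. Among the higher ones were CHRD (30 raw counts in WT and 518 in Delta-TRRAP, log2 fold change 4.10 ± 0.20) and the rare FSTL1 (8 and 91).

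Of 11 receptor and co-receptor genes, 10 were tested, 1 rose, 1 fell and 8 were not called. TGFBR1 (ENSG00000106799.13, chr9:99104038-99154192), the type I receptor of TGF-beta, had normalized counts of 10225, 10564 and 10455 in WT and 4971, 5399.7 and 5083 in Delta-TRRAP. Every mutant library was below every control, and the fitted decrease was 2.02-fold, close to the threshold (log2 fold change -1.02 ± 0.05, adjusted p = 1.37e-10). The call was lost without Delta-TRRAP replicate 1 (log2 fold change -0.99), with scaling by upper quartile or library size (-0.92 and -0.88) and with a minimum mean of 50 (-0.94), each time through the fold alone. TGFBR3 (ENSG00000069702.11, chr1:91680343-91906335), the co-receptor betaglycan that presents TGFB2 and inhibins, went the other way. It was counted at 1676, 1802 and 1942 normalized reads in WT and 3999, 4341 and 4045 in Delta-TRRAP. The increase was 2.29-fold without overlap (log2 fold change 1.19 ± 0.06, adjusted p = 1.43e-10).

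The type II receptor of TGF-beta, TGFBR2, was low in both lines and not called (0.365 against 0.322 RPKM, log2 fold change -0.17 ± 0.17, adjusted p = 0.364), so that TGFBR1 exceeded its partner at the RNA level in both. Of the other receptors, the activin and BMP type I receptors ACVR1 and ACVR1B passed the adjusted p with log2 fold changes of 0.43 ± 0.06 and 0.55 ± 0.06. BMPR1A, a type I receptor of BMPs, and ACVR2A, a type II receptor of activins, passed in the other direction with -0.43 ± 0.06 and -0.46 ± 0.10. These 4 differences were larger than the replicate spread but under 2-fold. The type II receptors ACVR2B and BMPR2 (-0.12 ± 0.06 and 0.12 ± 0.07, adjusted p = 0.0939 and 0.136) and the endothelial co-receptor ENG (-0.65 ± 0.38, adjusted p = 0.139) did not pass. BMPR1B was not tested, with 6 raw counts in WT and 15 in Delta-TRRAP.

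By RPKM the receptor order in WT ran from TGFBR1 (33.5 ± 0.558) through TGFBR3 (5.41 ± 0.399), ACVR2B (4.70 ± 0.247), ACVR1 (3.36 ± 0.140), BMPR1A (2.96 ± 0.104), ACVR1B (2.58 ± 0.0632) and BMPR2 (2.02 ± 0.0817) to ACVR2A (0.876) and TGFBR2 (0.365). In Delta-TRRAP TGFBR1 (16.6 ± 0.716) and TGFBR3 (12.4 ± 0.556) stood much closer to each other. ACVR1 (4.54 ± 0.245) and ACVR2B (4.32 ± 0.317) were within their spread there, as were BMPR1A (2.21 ± 0.0620) and BMPR2 (2.19 ± 0.196).

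The abundant SMADs that carry the signal were not called, and the inhibitory SMAD6 and SMAD7 were higher past the adjusted p. Of 8 SMAD genes 7 were tested, 2 rose, none fell and 5 were not called. SMAD5 (ENSG00000113658.18, chr5:136132845-136188747), by far the most abundant SMAD of the BMP branch, had normalized counts of 4717, 4812 and 4756 in WT and 5875, 6167 and 5502 in Delta-TRRAP. The mutant values were all higher, by a small amount (log2 fold change 0.30 ± 0.05, adjusted p = 0.000139). SMAD2, SMAD3 and SMAD4 had log2 fold changes of -0.14 ± 0.06, 0.07 ± 0.06 and 0.09 ± 0.05, and none passed the adjusted p (0.0405, 0.283 and 0.102). SMAD1 was nearly silent in this line, with 12 raw counts in WT and 16 in Delta-TRRAP.

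SMAD6 (ENSG00000137834.15, chr15:66702236-66782849), which inhibits BMP receptors, had normalized counts of 169, 187 and 183 in WT and 372, 330.5 and 398 in Delta-TRRAP. It was 2.04-fold higher in the mutant cells with no overlap (log2 fold change 1.02 ± 0.09, adjusted p = 1.29e-07), and fell under the fold threshold without WT replicate 1 (0.98) or Delta-TRRAP replicate 3 (0.96). SMAD7, which inhibits both branches, passed the adjusted p at 1.67-fold (172 ± 14.5 against 286 ± 7.30, log2 fold change 0.74 ± 0.09, adjusted p = 4.34e-06). SMAD9 was the third receptor-activated SMAD of the BMP branch and was rare, with raw counts of 1, 5 and 1 in WT and 10, 12 and 12 in Delta-TRRAP. Its log2 fold change was 2.23 ± 0.52 (adjusted p = 0.00143) and 3.32 without WT replicate 2, which held 5 of the 7 control counts. Per length SMAD9 reached 0.0492 RPKM in Delta-TRRAP against 16.6 for SMAD5.

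The co-repressors SKI and SKIL, paralogs that bind SMADs and recruit histone deacetylases, diverged below 2-fold. SKIL (ENSG00000136603.14, chr3:170357342-170396835) had 2775, 2573 and 2702 normalized counts in WT and 4193, 4556 and 4276 in Delta-TRRAP. The mutant libraries were 1.62-fold higher (log2 fold change 0.69 ± 0.05, adjusted p = 1.62e-08). SKI was lower in every mutant library, at 2789 ± 77.7 against 2233 ± 83.9 (log2 fold change -0.32 ± 0.05, adjusted p = 4.74e-05).

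The targets did not change in 1 direction: ID3 and ID2 were higher and ID1 lower in Delta-TRRAP, each past the adjusted p. Of 5 target genes 4 were tested, 1 rose, 1 fell and 2 were not called. ID3 (ENSG00000117318.9, chr1:23557926-23559501) was counted at 110.4, 154 and 105 normalized reads in WT and 464, 361 and 440.0 in Delta-TRRAP. All mutant values exceeded the controls, by 3.41-fold (log2 fold change 1.77 ± 0.13, adjusted p = 1.3e-08). ID1 (ENSG00000125968.9, chr20:31605283-31606515), the most abundant of the family, had 1701, 1774 and 1515 in WT and 938, 856 and 875 in Delta-TRRAP. It was 1.87-fold lower with no overlap, short of the fold threshold (log2 fold change -0.90 ± 0.07, adjusted p = 9.11e-09). ID2 was 1.62-fold higher (747 ± 54.9 against 1215 ± 64.6, log2 fold change 0.70 ± 0.07, adjusted p = 1.68e-07), and ID4 had no count in any library.

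Per length, ID1 stood at 34.7 ± 2.78 RPKM, ID2 at 8.67 ± 0.637 and ID3 at 2.11 ± 0.457 in WT. In Delta-TRRAP the order was kept but the levels drew closer, at 18.5 ± 0.890, 14.1 ± 0.750 and 7.24 ± 0.928. Set against the sequences above, ID1 and ID2 both hold GGCGCC upstream and differed in the sign of their change, ID3 holds none and was higher, and ID4 holds it and had no reads. TGFBI, a secreted matrix protein named for its induction by TGF-beta, was rare and lower, with 16.2, 18.2 and 20.4 normalized counts in WT and 4.90, 4.87 and 7.40 in Delta-TRRAP (log2 fold change -1.66 ± 0.34, adjusted p = 0.000517).

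**Figure D3:**
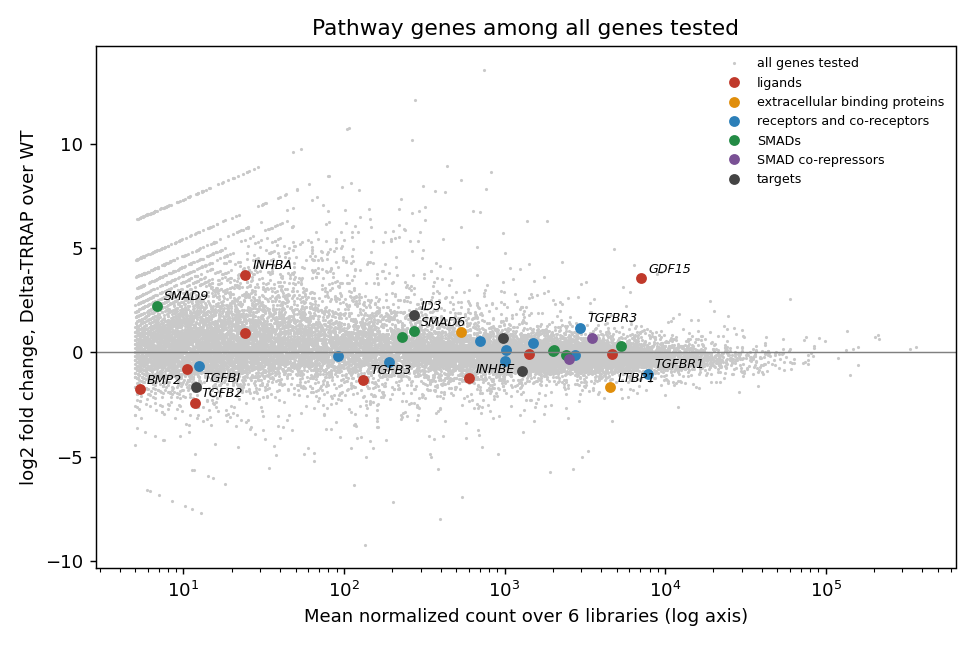
Log2 fold change (Delta-TRRAP over WT) against mean normalized count (log axis) for all 19114 tested genes in gray, with the 35 pathway genes colored by role and the called ones named. Called pathway genes are found at low abundance (BMP2 and SMAD9) as well as at high abundance (TGFBR1 and GDF15).

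Genes in the same chromosome region can move together in these cells, so each gene was set beside its neighbours within 5 Mb. Over 11442 genes with a mean of at least 100 normalized counts, the median log2 fold change was -0.09. ID1 lay in a stretch of chromosome 20 where 57 such neighbours had a median of -0.49, which left -0.41 of its own -0.90. The small rise of SMAD5 matched its surroundings (0.30, with a median of 0.31 over 81 neighbours), and TGFB1 at -0.09 was above its own (median -0.39 over 158). The larger changes stood clear of their regions: GDF15 had a neighbourhood median of -0.12, LTBP1 of -0.13, TGFBR3 of -0.30 and TGFBI, next to SMAD5, of 0.31. With the neighbourhood median subtracted, 8 of the 35 tested genes were past the call rule upward and 7 downward, against 6 and 7 without it. The share of all genes past the rule with this subtraction is not given here, so no excess is read from these counts. The cause of the regional shifts was not tested.

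**Figure D4:**
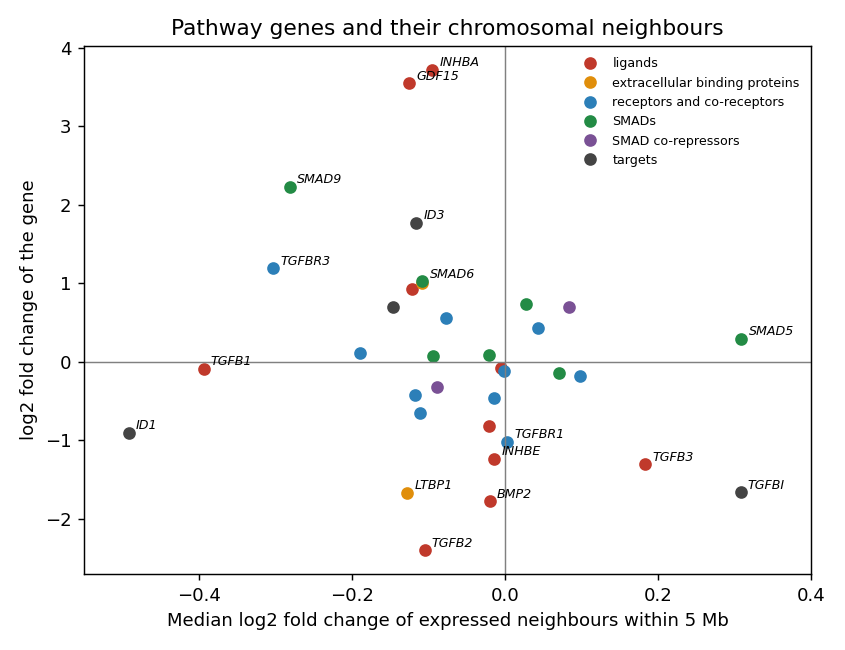
Log2 fold change of each tested pathway gene (vertical axis) against the median log2 fold change of expressed genes within 5 Mb of it (horizontal axis), colored by role, with gray lines at 0; the axes differ in scale. ID1 (-0.90 against -0.49) and TGFB1 (-0.09 against -0.39) have the lowest neighbourhoods among the tested genes, SMAD5 and TGFBI share the highest (0.31), and GDF15 (3.55) and LTBP1 (-1.66) sit above or below neighbourhoods near -0.1.

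Around these genes, 80 further genes of the pathway were followed from a separate list. Of these, 53 were tested, 16 were higher in Delta-TRRAP, 6 lower and 31 not called, with a median log2 fold change of 0.03. Thus 30.2% of those tested were higher and 11.3% lower, against 16.5% and 6.08% of all genes. Among the higher ones, LEFTY2, FSTL1, HAMP and LTBP2 had a WT mean under the filter's minimum of 5. They were tested because of their values in Delta-TRRAP. By role, of 7 tested genes listed as ligands, 3 rose (GDF9, INHA and LEFTY2) and none fell. These 7 include BMP1, which encodes a protease rather than a ligand and was not called. Of 6 receptors and co-receptors 4 rose and 2 fell, and of 12 extracellular proteins 3 rose and 1 fell. Of 16 intracellular regulators, only TGIF2, a SMAD co-repressor, was called (1196 ± 75.8 against 498 ± 7.14, log2 fold change -1.26 ± 0.06, adjusted p = 1.35e-10). TGIF2 shares reads with the readthrough gene TGIF2-RAB5IF and lies in a lowered region (neighbourhood median -0.56).

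Receptors were again moved in both directions. BAMBI, a decoy receptor without a kinase domain that dampens BMP and TGF-beta signals, was 3.26-fold lower, with 1874, 1957 and 1940.3 normalized counts in WT and 593, 571 and 608 in Delta-TRRAP (adjusted p = 8.8e-13). NEO1, a receptor for repulsive guidance molecules that takes part in BMP signaling, was also lower (481 ± 26.4 against 106 ± 17.6, log2 fold change -2.17 ± 0.11). The activin-class type I receptor ACVR1C (222 ± 19.1 against 954 ± 86.7, 2.10 ± 0.09), the anti-Mullerian hormone receptor AMHR2 (156 ± 30.3 against 443 ± 10.7, 1.51 ± 0.11) and the BMP co-receptor hemojuvelin, HJV (222 ± 12.2 against 829 ± 73.1, 1.90 ± 0.08), were higher. All 4 had an adjusted p of 9.11e-09 or less. NRROS, which anchors latent TGF-beta on myeloid cells, fell from 420.0 ± 6.32 to 58.3 ± 6.28 (log2 fold change -2.85 ± 0.10). It overlaps PIGX on the same strand and its neighbourhood median was -0.69. Of the monocyte markers given above, LYZ was lower and CD14 was not called.

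Of the 12 tested targets in the second list, 6 were higher and 2 lower. FN1, the matrix protein fibronectin, had 648, 624 and 711 normalized counts in WT and 11956, 14102 and 10139 in Delta-TRRAP, which was 18.2-fold higher (adjusted p = 5.29e-14). The transcription factor gene BHLHE40 (1.67 ± 0.06), the cell cycle inhibitor gene CDKN1A (1.16 ± 0.07) and THBS1 (1.10 ± 0.11), whose product activates latent TGF-beta, were higher too. SNAI1 and HEY1, which encode transcriptional repressors, were lower, with log2 fold changes of -1.13 ± 0.10 and -1.31 ± 0.07 in regions with medians of -0.54 and -0.28. FN1 is also abundant in mesenchymal cells, of whose 10 markers COL1A2 and PDGFRB were called higher and COL1A1 and DCN were not called. Both called markers had a WT mean under the filter's minimum of 5. PDGFRB was rare, with 5 raw counts over the WT libraries and 28 over the Delta-TRRAP libraries.

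**Figure D5:**
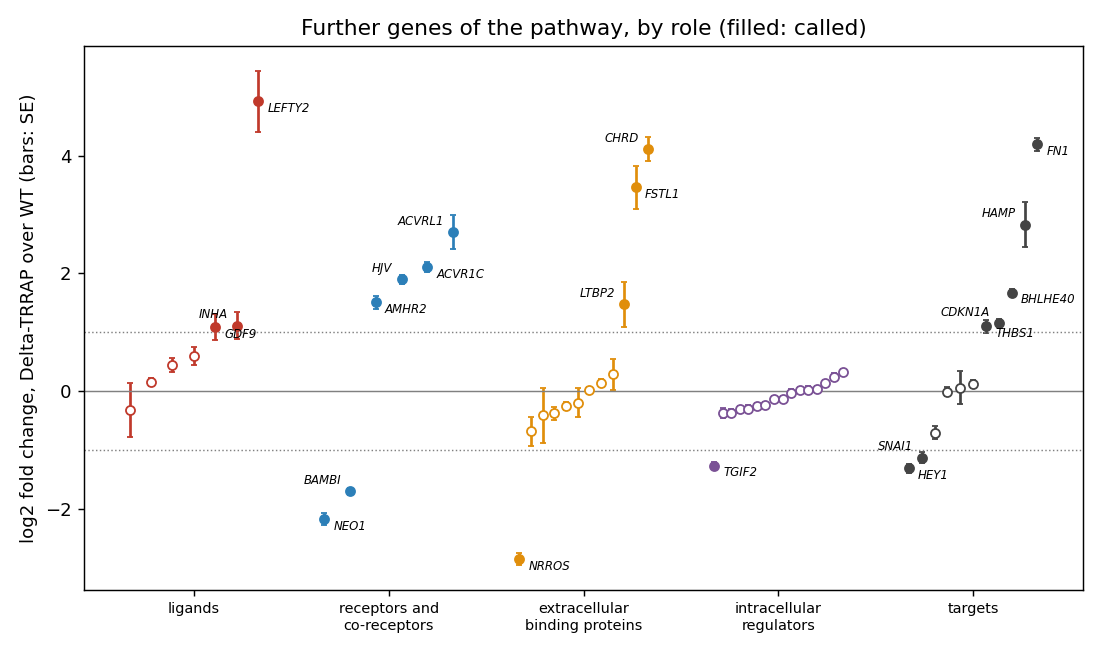
Log2 fold change (Delta-TRRAP over WT) with bars of 1 SE for tested genes of the second list, grouped by role, with called genes filled and named and dotted lines at a fold of 2. Called genes run from -2.85 for NRROS to 4.92 for LEFTY2, which had 3 raw counts over the WT libraries, and 15 of the 16 intracellular regulators are not called.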

How the data were processed

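Poly(A) RNA was sequenced from 6 K562 libraries, 3 per group. Per the labels and the study's methods, the authors aligned unique reads to hg38 with STAR and deposited raw counts per gene from HTSeq 2.0.2 (reverse-stranded, union mode); these counts were the only values used. A table of normalized counts, which also holds 3 columns of another condition, and a table of the authors' own fold changes and p-values were not used. Only unique alignments were counted, so reads of near-identical copies are lost or split.

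The filter kept genes whose normalized counts averaged 5 or more, and the test was that of edgeR 4.0.16 (R 4.3.3) with TMM scaling, group as the only term and the quasi-likelihood F test, checked on simulated data. A normalized count is a count scaled by TMM library size to the geometric mean of the libraries, the SE is the log2 fold change divided by the square root of F, and RPKM used merged exon lengths. Coordinates and neighbours came from GENCODE on the same GRCh38 assembly. The 43 genes, the lists and the tests were chosen with earlier results of these data known. Values per library are given for called genes with a mean of at least 20 and for the most abundant gene of each role, and second-list genes are named when called with a mean of at least 100; a few further genes were named after their values were seen, and 1 called gene of the second list is counted but not reported here. Alternatives were DESeq2 1.42.0, limma-voom (limma 3.58.1), other scalings, filters and thresholds, a replicate block and leaving out each library. Replicate numbers were shared by both groups, but the labels do not say what they mark. Intervals and limits cover counting error only.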

Additional observations from a re-analysis of the deposited data

How the results depend on the processing

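Of the 13 called genes, 10 were called under every alternative that gave them a value, and the exceptions were BMP2, TGFBR1 and SMAD6. No listed gene reversed past the threshold. With a mean of at least 50 required, 5 pathway genes were higher and 3 lower (62.5% higher), 9 further pathway genes were higher, and 1291 and 673 of all genes were higher and lower. The numbers tested under that filter are not given here, so no share of tested genes is read from these counts. Fewer genes were tested under that filter, and the TMM scaling was recomputed on them. In addition TGFBR1 lost its call and LTBP3 gained one, both with log2 fold changes moved upward as given above. The part of the scaling in these moves was not tested apart. At a fold of 1.5, 11 pathway genes were higher and 8 lower, beside 4188 and 2562 of all genes. With no fold threshold 14 pathway genes were higher and 11 lower, 15 further pathway genes were lower, and 5874 and 5275 of all genes were higher and lower. Leaving out 1 library gave 5 to 8 pathway genes higher and 5 to 7 lower, 14 to 16 further pathway genes higher and 6 lower, and 2881 to 3094 of all genes higher and 1098 to 1169 lower. Upper quartile scaling and library size moved the median of all genes by 0.10 and 0.14 in log2 and gave 8 pathway genes higher and 6 lower (57.1% higher, against 46.2%); the small differences of TGFB1 and GDF11 changed sign under both, and that of ACVR2B under library size only. With the replicate block 6 were higher and 6 lower, BMP2 being lost (adjusted p = 0.011). Same-numbered libraries did not deviate together (correlations of -0.00946, -0.0293 and -0.019). These values show no sign of pairing by number but cannot exclude it, since the labels do not say what the numbers mark. Low counts limit INHBA, TGFB2, BMP2, SMAD9, TGFBI and the 8 untested genes.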
